A study of Mus musculus with 6 samples.

Results

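T cells from the surroundings of mouse collecting lymphatic vessels were picked out of single-cell RNA libraries by a rule on their own transcripts. A droplet barcode was kept when it held no fewer than 500 detected genes and no more than 10% mitochondrial UMIs (unique molecular identifiers, which count captured transcripts). A kept barcode was called a T cell when Cd3d, Cd3e and Cd3g together had at least 2 UMIs, Cd79a had 0, C1qa, C1qb and C1qc together had at most 1, and Col1a2 with Dcn had at most 2. The 3 Cd3 genes encode the signalling chains of the T cell receptor, while the other genes mark B cells, macrophages and fibroblasts. The rule found 726 T cells among 24488 kept barcodes of the series.

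The tissue was the dermal collecting vessel that joins the inguinal to the axillary lymph node in C57BL/6 mice, taken and digested so that cells of the vessel wall and of the tissue beside it entered the same 10x 3′ library. There were 6 libraries: 2 from young mice of 6 weeks, 2 from middle-aged mice of 12 months and 2 from aged mice of 18 months, and at each age 1 library was labelled female and 1 male. The labels mention no transgene, and all mice were anesthetized with ketamine and xylazine, and had Evans Blue dye injected into the inguinal node to show the vessel. Fat and connective tissue were trimmed away, and the vessel was digested with collagenase I, elastase and dispase before red cells were lysed. The aged mice came from the National Institute on Aging, so supplier and age cannot be told apart. The number of mice behind a library is not stated, and p-values here measure only the spread between these libraries, which may be technical.

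T cells recognise peptide or other ligands through a receptor made either of alpha and beta chains (Trac, Trbc1, Trbc2) or of gamma and delta chains (Tcrg-C1, Trdc), and the CD3 chains pass the signal on. The coreceptor CD4 marks helper and regulatory cells, and CD8 marks cells that can become cytotoxic. Naive T cells circulate between blood, lymph nodes and lymph with the help of CCR7 and S1PR1, whereas many gamma-delta T cells of mouse skin and fat stay in the tissue and can make interleukin-17.

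The libraries held between 9616652 and 28921825 UMIs in all barcodes. Sex-linked transcripts of the T cells went against the labels in 1 pair: Xist had 228 UMIs and Y-linked genes 0 in the T cells of the library labelled middle-aged male, while Xist had 0 and Y-linked genes 36 in those of the library labelled middle-aged female. The young and aged libraries matched their labels. Kept barcodes shared between libraries numbered 63 when summed over all pairs, and 0 of them were T cells in both libraries of a pair. Scrublet, a doublet caller, marked 590 kept barcodes and 4 of the T cells.

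T cells were a small and uneven part of the tissue. They made up 7.49% of kept barcodes in the young female library (337 cells, 95% exact binomial interval 6.74 to 8.30%) and 0.778% in the young male one (64 cells, 0.600 to 0.992%). In the libraries labelled middle-aged female and male they made up 2.70% (27 cells, 1.79 to 3.91%) and 1.29% (82 cells, 1.03 to 1.60%). In the aged female and male libraries they made up 7.32% (104 cells, 6.02 to 8.80%) and 3.76% (112 cells, 3.10 to 4.50%). The 2 young libraries held the highest and the lowest share, and the middle-aged and aged ones lay between them, so the ages overlapped. An edgeR quasi-likelihood test of the share, adjusted over 12 cell classes, gave a log2 difference of 0.42 ± 1.42 (SE; n = 2 against 2) for aged against young (adjusted p = 0.891), −1.06 ± 1.44 for middle-aged against young (adjusted p = 0.852) and 1.48 ± 1.46 for aged against middle-aged (adjusted p = 0.825). With every barcode thinned to 1000 UMIs the share was 5.39% and 0.519% in the young female and male libraries, 1.51% and 0.908% in those labelled middle-aged female and male, and 4.97% and 2.02% in the aged female and male ones. Without the young male library the aged against young difference was −0.44, without the aged female one −0.14, and without the young female one 2.83.

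**Figure D1:**
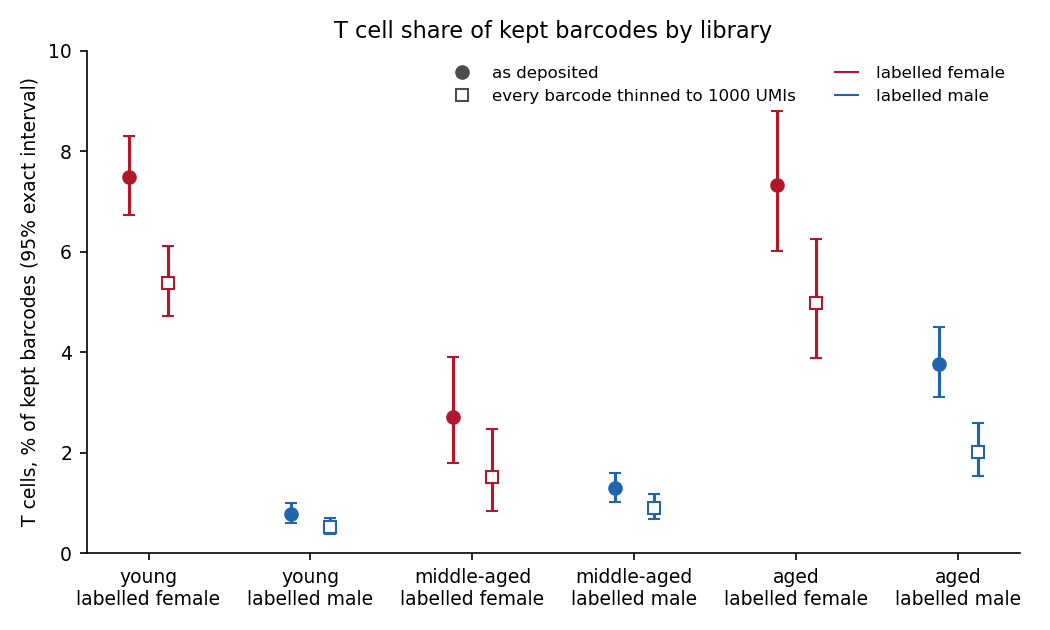
T cells as a percentage of kept barcodes in each library (y axis, %), with filled points for the data as deposited and their 95% exact binomial intervals, and open squares for barcodes thinned to 1000 UMIs. The young female (7.49%) and aged female (7.32%) libraries stand highest and the young male one (0.778%) lowest, so the 2 young libraries lie at both ends.

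The edge of the rule was drawn through cells with few Cd3 UMIs. Of 780 kept barcodes with at least 2 Cd3 UMIs, 7 were left out for Cd79a, 13 for C1q and 36 for Col1a2 and Dcn, some for more than 1 reason. Among the T cells 201 held exactly 2 Cd3 UMIs, and 228 barcodes that met the other terms held exactly 1 and stayed outside. At least 1 UMI of Trac, Trbc2 or Lck was seen in 91.5% of the cells just inside against 81.8% of those just outside in the young female library, and in 63.3% against 70.7% in the aged male one. In fibroblasts, which lack these genes, 0.0970 to 0.549% of cells per library held a Cd3 UMI.

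The cells selected carried the other genes of the T cell receptor. Trac (mm10 chr14:54220521-54224206, plus strand) had 346 CPM (UMIs of a gene as a share of all UMIs in the sum, scaled to one common total) in summed T cells, against 3.41 in B cells, 0.502 in macrophages and 0.358 in fibroblasts. Trbc2 had 788 CPM in T cells, against 7.96 in B cells and 0.637 in fibroblasts. Themis, a protein of thymocyte receptor signalling, and Bcl11b, a transcription factor that holds T cell identity, had 96.5 and 255 CPM in T cells, against 1.14 and 2.28 in B cells. Free RNA, read from barcodes under 100 UMIs, held 5.70 CPM of Trac and 13.8 CPM of Trbc2. Markers of other cells were low but uneven. In the order young female, young male, labelled middle-aged female, labelled middle-aged male, aged female, aged male, the summed CPM of 5 epithelial genes was 130, 16.5, 12.1, 62.1, 934 and 17.3, that of 3 erythrocyte genes 24.1, 0, 6.06, 53.2, 90.1 and 2861, and that of 7 macrophage genes 183, 405, 0, 62.1, 32.4 and 58.9. The B cell markers ranged from 66.7 to 1190 CPM, with Cd79a, which the rule used, at 0 in every library. In all, 19 of 726 T cells held more than 1 UMI of epithelial, endothelial, smooth muscle or mast cell markers or more than 2 of Lyz2, from 0 in the library labelled middle-aged female to 6 in the young female one.

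Depth set what could be read from a single cell. T cells had a median of 1635 and 1499.5 UMIs in the young female and male libraries, 5756 and 1295 in those labelled middle-aged female and male, and 1923.5 and 2282.5 in the aged female and male ones. The library labelled middle-aged female thus had the most UMIs per T cell and the fewest T cells. A coreceptor UMI was absent from most cells at this depth, and a cell without one is called double-negative here as a statement on UMIs, not on protein.

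By coreceptor UMIs, 194 T cells were CD8 (Cd8a or Cd8b1), 56 were CD4, 1 had both and 475 were double-negative. CD8 cells made up 32.9% and 7.81% of the T cells in the young female and male libraries, 18.5% and 28.0% in those labelled middle-aged female and male, and 37.5% and 9.82% in the aged female and male ones. CD4 cells made up between 3.66% and 14.8%, and 7.71% over all T cells (95% exact interval 5.88 to 9.90%). Thinned to 1000 UMIs, 19.5% of T cells had a CD8 UMI and 4.47% a CD4 UMI, against 26.7% and 7.71% unthinned. In fibroblasts, which lack both genes, 0 to 0.452% held a Cd4 UMI and 0 to 0.110% a Cd8b1 UMI at median depths of 3242.5 to 10314 UMIs. Among the CD8 cells and the 1 cell with both coreceptors, 65 held both CD8 chains, 95 only Cd8b1 and 35 only Cd8a, where the beta chain is typical of conventional CD8 cells.

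A second axis ran through the double-negative cells. Trdc (ENSMUSG00000104876, chr14:54142851-54148868, plus strand), the constant region of the delta chain, had at least 1 UMI in 107 T cells, of which 105 were double-negative, 2 CD8 and 0 CD4; 0 of 56 CD4 cells allows a share of up to 5.36% with a detected UMI, which does not limit the share expressing Trdc below detection. Trdc-positive cells made up 5.04% and 9.38% of the T cells in the young female and male libraries, 44.4% and 8.54% in those labelled middle-aged female and male, and 17.3% and 42.0% in the aged female and male ones. Thinned to 1000 UMIs the same shares were 2.73% and 8.62%, 33.3% and 6.85%, and 10.5% and 33.6%. Both aged libraries thus lay above both young ones in each version, while the middle-aged pair held 1 high and 1 low library. The young male share rested on 6 of 64 cells. Its 95% exact interval (3.52 to 19.3%) overlapped that of the aged female share (10.6 to 26.0%). After thinning the 2 intervals were 2.86 to 19.0% and 5.16 to 18.5%, so the order of these 2 libraries is not resolved. In fibroblasts 0 to 0.423% of cells held a Trdc UMI. The double-negative cells without Trdc numbered 370, and 293 of them held a Trbc1 or Trbc2 UMI, so most of that group carried a beta chain transcript.

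**Figure D2:**
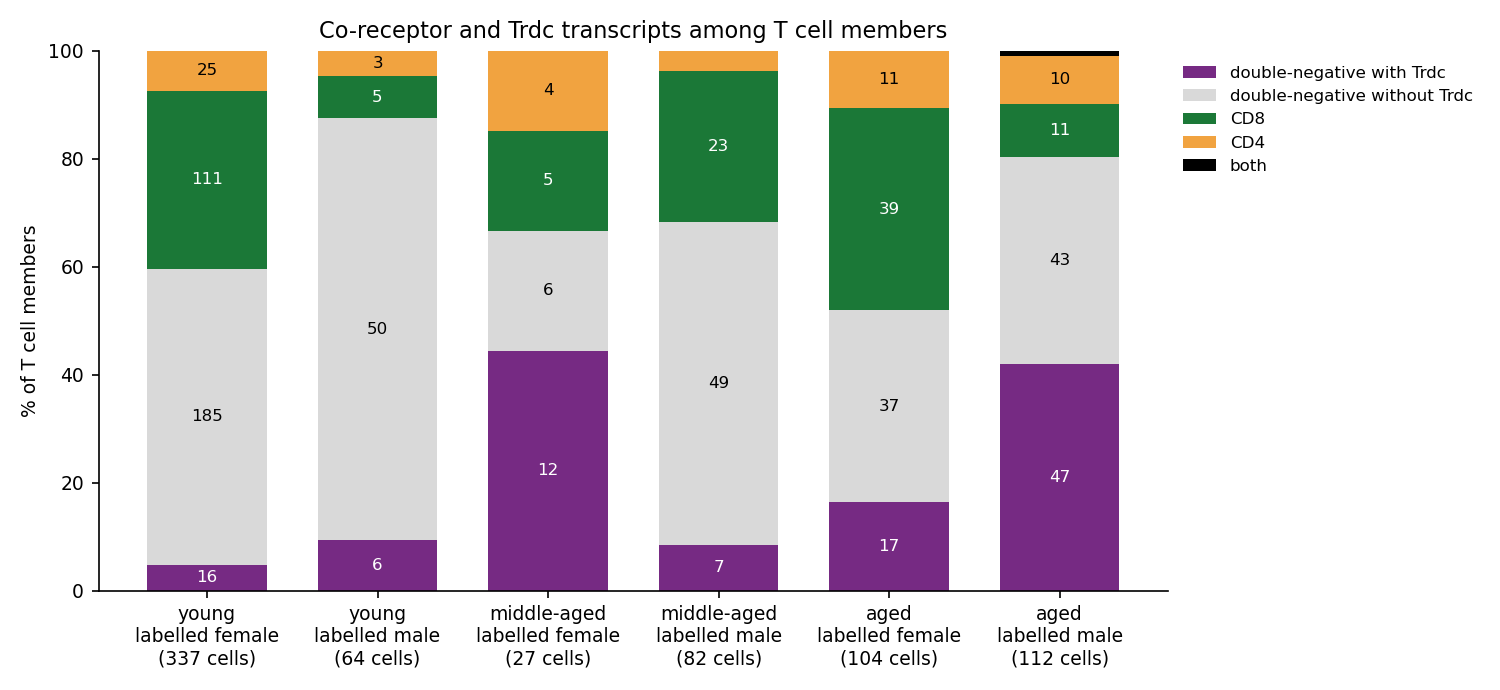
Stacked bars of the percentage of T cells in each library (y axis, %) that were double-negative with Trdc, double-negative without Trdc, CD8, CD4 or both, with the number of cells printed in each block. Trdc-positive double-negative cells take 12 of 27 cells in the library labelled middle-aged female and 47 of 112 in the aged male one, and 16 of 337 in the young female one.

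The Trdc-positive cells shared a set of transcripts. Summed over all libraries, and as a description of cells chosen by 1 UMI of Trdc, they held 1194 CPM of Trdv4 (chr14:54074905-54075515), a variable segment of the delta chain, against 6.41 in the Trdc-negative T cells. Cd163l1 (ENSMUSG00000025461, chr7:140218267-140231145), a scavenger receptor known from mouse gamma-delta cells that make interleukin-17, had 575 CPM against 6.41. Il17a had 282 against 11.2 CPM, and Il23r, the receptor chain for the cytokine that sustains interleukin-17 production, had 107 against 8.01 CPM. The transcription factors Sox13 and Maf, both needed for gamma-delta 17 cells in mice, had 53.3 against 2.40 CPM and 471 against 126 CPM, and Zbtb16, the factor PLZF of innate-like T cells, had 85.9 against 18.4 CPM. Blk, a Src family kinase, had 240 against 16 CPM. At the other end, Trac had 26.7 CPM in Trdc-positive cells against 432 in Trdc-negative ones, Ccr7 2.96 against 251, Lef1 17.8 against 252 and Themis 11.9 against 119 CPM. Trbc1 and Trbc2 lay closer together, at 172 against 453 CPM and 311 against 917 CPM, and 69 of the 107 Trdc-positive cells also held a beta chain UMI. The beta constant genes are near-identical copies, as are Tcrg-C1 and Tcrg-C2 of the gamma chain, so reads may be split between such copies.

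Single cells showed the same pairing of transcripts. Of 107 Trdc-positive cells 65 held a Cd163l1 UMI, against 4 of the other T cells. These 65 were spread as 0 of 17 and 4 of 6 in the young female and male libraries, 11 of 12 and 4 of 7 in those labelled middle-aged female and male, and 10 of 18 and 36 of 47 in the aged female and male ones. The young female library was the single library with no Cd163l1 UMI in any T cell, and a count of 0 in 337 cells allows a share of up to 0.890% with a detected UMI at that library's median of 1635 UMIs, not a limit on cells expressing the gene. Among gamma variable segments, Trgv2 had 73 UMIs in all T cells, Tcrg-V6 29, Tcrg-V1 6, Tcrg-V4 4, Tcrg-V5 3 and Tcrg-V7 1. Of the 29 Tcrg-V6 UMIs 15 were from the aged pair, 13 from the middle-aged pair and 1 from the young pair. Trdv4, the delta segment known to pair with Vgamma6 in mice, had 411 UMIs, of which 218 were in the aged male library, 136 in the library labelled middle-aged female, 34 in the aged female one, 13 in the young female one, 7 in the library labelled middle-aged male and 3 in the young male one.

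To ask which genes went with the lack of a coreceptor UMI, counts were summed per library and compared between double-negative cells and the CD4 and CD8 cells of the same library, in the 4 libraries with at least 10 cells on each side (young female, labelled middle-aged male, aged male, aged female). The CD4 and CD8 side was mostly CD8, with 111 of 136, 23 of 26, 11 of 21 and 39 of 50 cells in that order. A gene that differs between CD8 and CD4 cells can thus differ here too, and the part of this make-up was not tested. The coreceptor genes that drew the line were left out of the test. With edgeR's quasi-likelihood test, library as a block and Benjamini-Hochberg adjustment, 47 of 2712 genes were higher and 7 lower in double-negative cells, 1.99% of the genes tested (1.73% higher, 0.258% lower). DESeq2 called 21 (0.774%). Of the genes detailed below, Trdc, Trdv4, S100a6, S100a4, S100a11, Rora and Maf were among DESeq2's calls. Cd163l1, Il17a, Blk, Tcrg-C1, Cxcr6, Il18r1, Capg, Themis, Ly6c2, Cd74 and Epsti1 were not. In sums of this kind, fewer cells of a type and less RNA per cell cannot be told apart.

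Gamma-delta genes led the higher set. Trdc had 84.5, 234, 1171 and 487 CPM in the double-negative cells of the young female, labelled middle-aged male, aged male and aged female libraries, against 3.75, 0, 0 and 7.84 CPM in their CD4 and CD8 cells. The groups did not overlap, which was not counted over all genes tested. With 381 against 2 UMIs the ratio was 118 (95% counting interval 32.5 to 980; adjusted p = 4.60e-06). Trdv4 had 36.6, 96.3, 978 and 227 CPM in double-negative cells, against 0 in the CD4 and CD8 cells of every library, so it was at least 56.3-fold higher (floor of 3 UMIs over the group; adjusted p = 6.81e-05). Cd163l1 was at least 31.9-fold higher, with 0, 193, 395 and 347 CPM against 0 throughout (adjusted p = 0.000177). The young female library gave no Cd163l1 UMI on either side and carried none of that difference. Il17a, the cytokine itself, had 22.5, 55.0, 94.2 and 207 CPM against 0 throughout, at least 13.2-fold higher (adjusted p = 0.00566). Blk had 53.5, 55.0, 166 and 134 CPM against 0, 0, 0 and 7.84, a ratio of 49.7 (8.66 to 1986) on 80 against 1 UMIs (adjusted p = 0.000914). Tcrg-C1 had 50.7, 82.5, 238 and 140 CPM against 0, 49.9, 0 and 15.7, and rose by 3.48 ± 0.62 on the log2 scale (adjusted p = 0.00572). Of 18 gamma-delta genes in the files, the 7 with enough UMIs to be tested were all called higher, with a median log2 difference of 6.13 (4.99 with genes at 0 held at their bound), against −0.01 over all genes. A gene of this kind reaches the count filter mainly through the double-negative side, so that count is a description.

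Several genes outside the gamma-delta list were also higher in double-negative cells than in the mostly CD8 cells of the other side. S100a6, a calcium-binding protein of motile and activated cells, had 1065, 2476, 5063 and 3886 CPM in the double-negative cells of the same 4 libraries, against 292, 1272, 1423 and 1316 CPM in CD4 and CD8 cells. It was higher in 4 of 4 libraries, by 1.56 ± 0.15 (adjusted p = 2.28e-05), and S100a4 (1.35 ± 0.24, adjusted p = 0.00569) and S100a11 (1.21 ± 0.22, adjusted p = 0.00572) moved with it. Rora, a nuclear receptor of interleukin-17 and type 2 lymphocytes, had 361, 1183, 1302 and 521 CPM against 63.7, 374, 464 and 337, higher in every library by 1.49 ± 0.25 (adjusted p = 0.00322). Maf followed with 158, 316, 408 and 247 CPM against 41.2, 25.0, 128 and 165 (1.50 ± 0.33, adjusted p = 0.0213). Cxcr6, a chemokine receptor of tissue-resident lymphocytes, had 110, 193, 431 and 200 CPM against 26.2, 74.9, 32.0 and 133 (1.68 ± 0.39, adjusted p = 0.0331), and Il18r1, a receptor chain for interleukin-18, rose by 1.54 ± 0.30 (adjusted p = 0.0124). Of 9 tissue residency genes tested, 3 rose (Cxcr6, Il18r1, Rgs2) and 0 fell, with a median of 0.06, and of 9 regulatory T cell genes 1 rose, Capg, an actin-capping protein, by 1.70 ± 0.36 (adjusted p = 0.0186). Il2ra, the alpha chain of the interleukin-2 receptor, missed the threshold at 2.04 ± 0.51 (adjusted p = 0.0527).

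Few genes were lower in double-negative cells. Themis had 81.7, 82.5, 40.4 and 73.5 CPM against 184, 200, 176 and 157 in CD4 and CD8 cells, lower in 4 of 4 libraries (log2 difference −1.39 ± 0.30, adjusted p = 0.0198). Ly6c2, a surface antigen of memory CD8 cells, had 155, 151, 112 and 160 CPM against 337, 349, 464 and 180 (−1.18 ± 0.28, adjusted p = 0.0414). Cd74, the invariant chain of class II antigen presentation, and Epsti1, an interferon-induced gene, had log2 differences of −1.75 ± 0.32 and −1.15 ± 0.26 (adjusted p = 0.00652 and 0.0265). Of 18 genes of the T cell receptor and its signalling, 1 fell (Themis) and 0 rose, with a median of −0.32. Trac (−0.72 ± 0.23), Trbc1 (−0.22 ± 0.25) and Trbc2 (−0.44 ± 0.19) had adjusted p-values of 0.184, 0.842 and 0.408. None of 11 naive and central memory genes passed (median −0.47; Ccr7 −1.41 ± 0.39, adjusted p = 0.0880), nor did any of 12 cytotoxic genes (median −0.33; Nkg7 −0.88 ± 0.23, adjusted p = 0.0671).

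**Figure D3:**
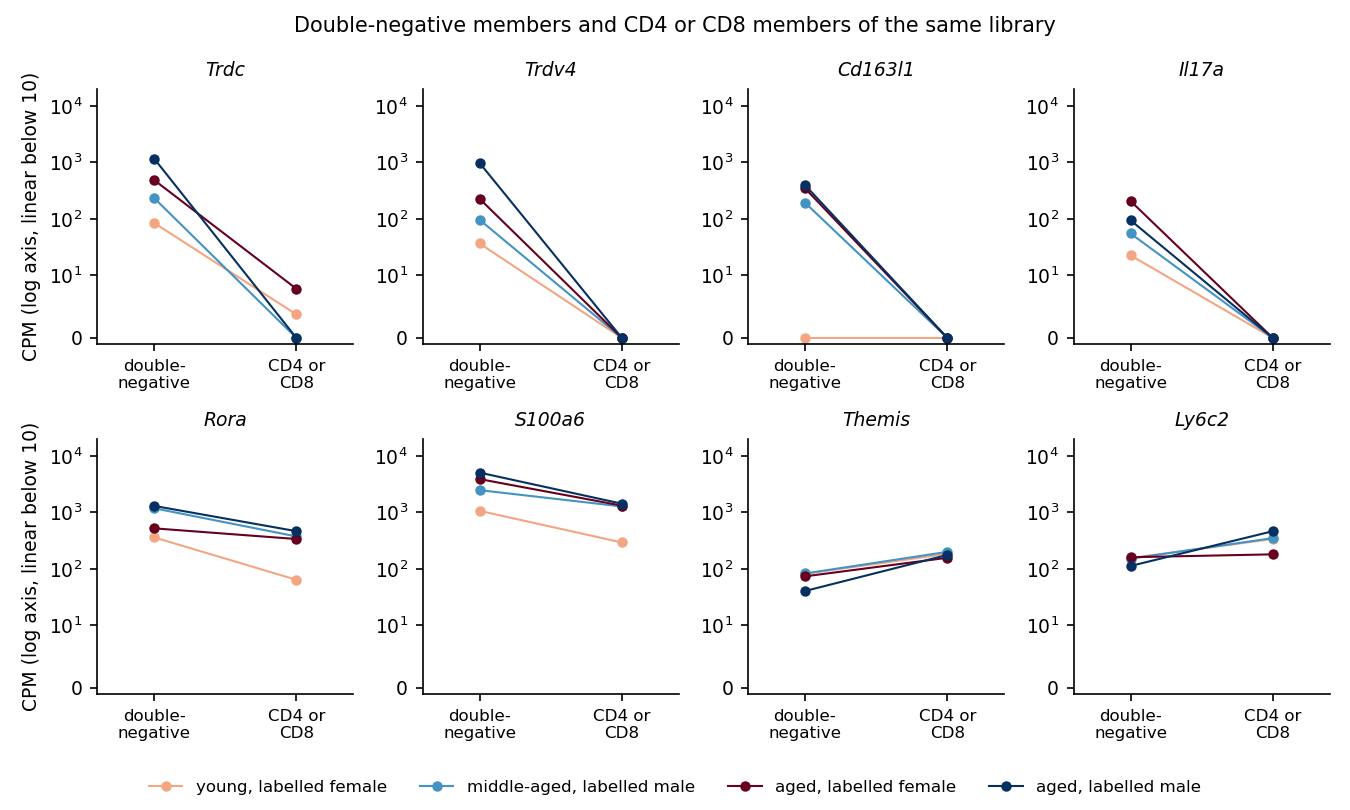
CPM of 8 genes in summed double-negative cells and in the CD4 or CD8 cells of the same library (x axis), 1 line per library, on an axis that is linear under 10 CPM and logarithmic above. Trdc, Trdv4, Il17a, Rora and S100a6 slope down from double-negative to CD4 or CD8 cells in all 4 libraries, and Cd163l1 does so in 3, since it is at 0 on both sides in the young female library, while Themis and Ly6c2 slope the other way.

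Some genes of other cells stood among the 54 calls. Krt8, a keratin of simple epithelium, had 90.1, 27.5, 0 and 481 CPM in double-negative cells against 0, 25.0, 0 and 15.7, a ratio of 21.9 (7.31 to 108) on 106 against 3 UMIs, and the neutrophil gene S100a9 had 180, 248, 0 and 0 against 0, 0, 16 and 0. The hemoglobin gene Hbb-bs had 22.5, 27.5, 2343 and 46.7 CPM against 7.50, 99.8, 32.0 and 23.5. With the 19 cells that held markers of other cells left out, 73 genes were called, and 42 of the 46 original calls still tested were among them. Without the Trdc-positive T cells 9 genes were called, and of 31 original calls still tested 7 were among them (Rora, Cd74, Klf4, Fubp1, Ramp3, S100a9 and Tmem64). S100a6, S100a4, S100a11, Maf, Cxcr6, Il18r1, Capg, Themis and Ly6c2 were not called without the Trdc-positive cells. Without the aged male library 16 genes were called and without the young female one 20. In the fit without the aged male library Trdc, Trdv4, Cd163l1 and S100a6 were still called. Il17a, Blk, Tcrg-C1, Rora, Maf, S100a4, S100a11, Cxcr6, Il18r1, Capg, Themis and Ly6c2 were not.

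CD8 and CD4 cells could be set side by side in 3 libraries (young female, aged male, aged female). None of 767 genes passed edgeR's test (0% called) and DESeq2 called 1 (0.13%), while 97 had a p under 0.05 before adjustment, so the values are given as measured. Ccl5, a chemokine of memory and effector CD8 cells, had 383, 4401 and 5158 CPM in the CD8 cells of these libraries, against 179, 57.0 and 331 CPM in their CD4 cells. The difference was 3.66 ± 0.60 on the log2 scale, higher in 3 of 3 libraries (adjusted p = 0.0769). Nkg7, a granule protein of cytotoxic cells, had 518, 333 and 785 against 157, 114 and 23.6 CPM (2.70 ± 0.59, adjusted p = 0.0769). Gzma had 211 UMIs in all CD8 cells and 0 in all CD4 cells. On the CD4 side, Tnfrsf4, the costimulatory receptor OX40, had 4.51, 44.5 and 0 CPM in CD8 cells against 179, 342 and 709 in CD4 cells, a ratio of 0.0202 (0.00402 to 0.0631) on 3 against 44 UMIs (adjusted p = 0.0769). Ikzf2, the factor Helios of regulatory T cells, had 31.5, 0 and 11.7 against 313, 114 and 260 CPM (−3.52 ± 0.74, adjusted p = 0.0769), and Icos, a costimulatory receptor of activated helper cells, 76.6, 244 and 117 against 313, 913 and 354 (−1.69, adjusted p = 0.0832). The CD8 and CD4 values of Ccl5, Nkg7, Tnfrsf4, Ikzf2 and Icos did not overlap, and non-overlap was not counted over all 767 genes. Without the aged male library, whose 11 CD8 and 10 CD4 cells were the fewest, 79 genes were called (46 higher, 33 lower).

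**Figure D4:**
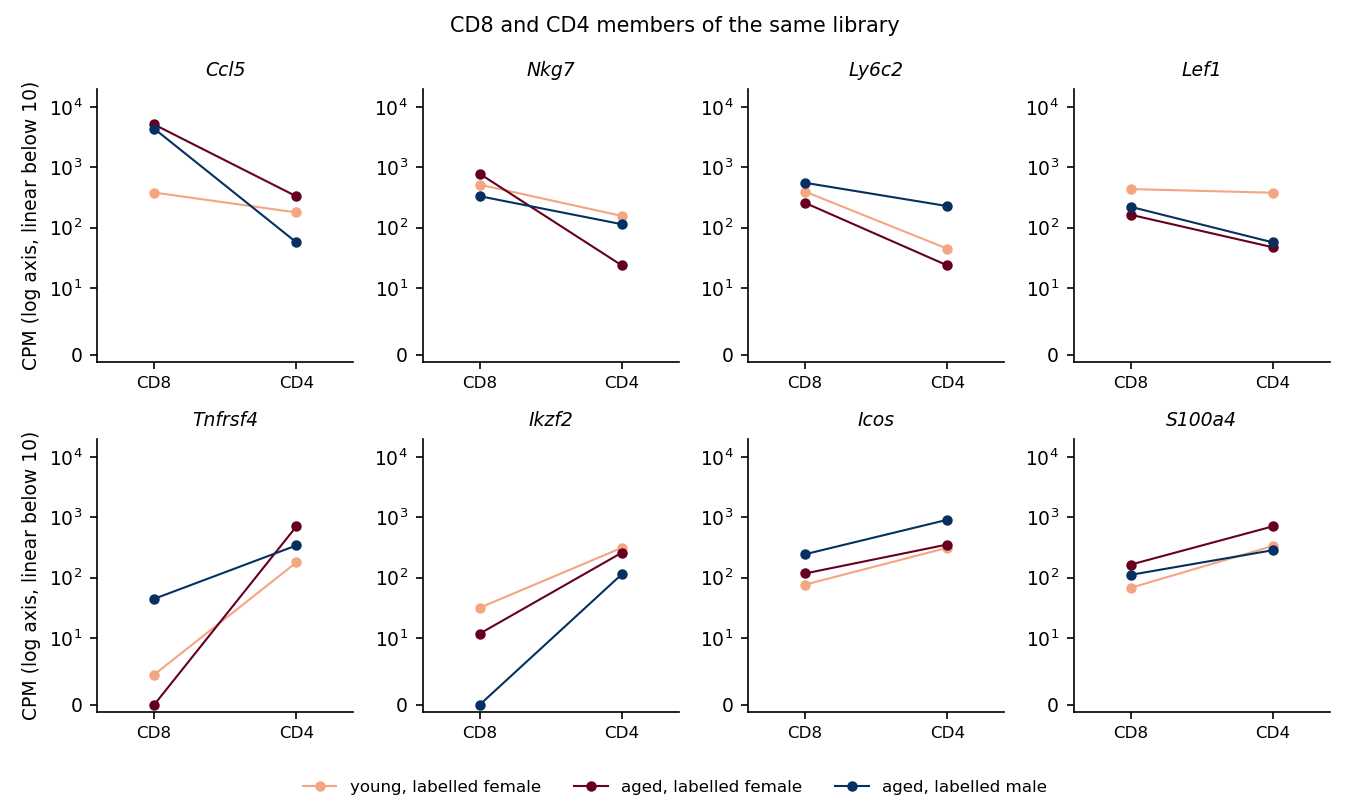
CPM of 8 genes in summed CD8 and CD4 cells of the same library (x axis), 1 line per library, on an axis that is linear under 10 CPM and logarithmic above. Ccl5 and Nkg7 lie higher in CD8 cells and Tnfrsf4, Ikzf2, Icos and S100a4 higher in CD4 cells in all 3 libraries, and none of the 8 passed the test.

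Foxp3, the master factor of regulatory T cells, had a UMI in 15 T cells, 6 CD4 and 9 double-negative, with 9 in the young female library, 4 in the aged female one and 1 each in the aged male library and the one labelled middle-aged female. Too few of them shared a library for a comparison. Summed over libraries, CD4 cells held 334 CPM of Il1rl1, the interleukin-33 receptor, and 400 CPM of Areg, a growth factor of tissue regulatory and type 2 cells, where CD8 cells held 0 and 2.33 CPM.

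Age was then compared over the T cell sums of all 6 libraries, 2 per age, in a single edgeR fit of 3488 genes. For aged against young cells 0 genes passed (0% called), with 246 at an unadjusted p under 0.05. DESeq2 called 7, all lower in aged cells (0.201%): Cd74, H2-Aa, H2-Ab1, H2-Eb1, Ly6c1, Lyz2 and Tyrobp, most of them genes of antigen-presenting and myeloid cells. For middle-aged against young cells 0 passed in edgeR and 8 in DESeq2 (0.229%), with 295 under 0.05 before adjustment. For aged against middle-aged cells 0 passed by either tool, with 78 at an unadjusted p under 0.05. With labelled sex as a replicate block 9 genes were called for aged against young, all lower (Cd74, H2-Aa, H2-Ab1, H2-Eb1, Lyz2, Fabp4, Sparc, Igfbp7 and Cd36), and 10 for middle-aged against young. With the middle-aged labels exchanged in that block the counts were 5 and 8. Ccr7 was called lower and Il1rl1 higher in middle-aged than in young cells in both versions of the block, and Il17a was called higher in the version with labels as given. The age values that follow are from the fit without the block, where no gene was called.

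Gamma-delta genes lay higher in the aged pair. Trdc had 267 and 905 CPM in the aged female and male T cells, against 49.9 and 157 CPM in the young female and male ones (2.45 ± 0.82 on the log2 scale, adjusted p = 0.553). The 2 pairs did not overlap, and non-overlap was not counted over all genes tested. In the libraries labelled middle-aged female and male it had 776 and 151 CPM, and the lower of these lay among the young values. Trdv4 had 123 and 756 against 20.9 and 24.8 CPM (4.02 ± 1.14, adjusted p = 0.457), and Cd163l1 187 and 305 against 0 and 57.9 CPM (3.89 ± 1.05, adjusted p = 0.396). Il17a had 112 and 72.8 CPM in aged cells against 12.9 and 0 in young ones (2.84 ± 0.91, adjusted p = 0.545), and in the libraries labelled middle-aged female and male it had 273 and 35.5 CPM. Of 13 gamma-delta genes tested, 12 had a positive and 1 a negative aged against young difference, 8 of them at an unadjusted p under 0.05, with a median of 1.52 against 0.01 for all genes. For middle-aged against young all 13 were positive (median 1.69), and both comparisons share the young libraries. A fit without 1 library leaves that age with a single library, whose spread is assumed to be that of the other ages. In such a fit without the aged female library 25 genes were called for aged against young, Trdc, Trdv4, Cd163l1 and Il2ra among the 17 higher ones. Without the young male library 2 were called, Cd163l1 higher and Dapl1 lower, and without the aged male library 17, among which were the epithelial Krt19 and Epcam.

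Genes of naive and circulating cells lay lower in the aged pair. Ccr7 had 75.7 and 101 CPM in the aged female and male libraries, against 394 and 132 in the young female and male ones (−1.94 ± 0.53, adjusted p = 0.406). The libraries labelled middle-aged female and male had 6.06 and 17.7 CPM, which against young rested on 3 against 261 UMIs, a ratio of 0.0307 (0.00630 to 0.0908; adjusted p = 0.0670). Lef1, a factor of naive T cells, had 101 and 104 against 364 and 165 CPM (−1.71 ± 0.45, adjusted p = 0.378), and Klf2, which drives S1pr1, 202 and 163 against 499 and 273 (−1.40, adjusted p = 0.535). Neither gene overlapped between aged and young, a separation of 2 libraries from 2 that was not counted over all genes. Of 10 naive and central memory genes tested 9 were negative and 1 positive (median −1.03; 4 at an unadjusted p under 0.05). Trbc1, at 231 and 208 against 531 and 455 CPM (−1.44 ± 0.37, adjusted p = 0.368), was the receptor gene with the smallest p.

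Tissue residency and activation genes lay the other way. Il2ra had 169 and 333 CPM in aged female and male cells against 35.4 and 24.8 in young ones (2.65 ± 0.53, adjusted p = 0.195). Cxcr6 had 169 and 347 against 74.0 and 82.7 CPM (1.47 ± 0.48, adjusted p = 0.545), and Areg 187 and 135 against 30.6 and 0 CPM (2.52 ± 0.63, adjusted p = 0.344). S100a6 had 2704 and 4400 CPM in aged cells against 733 and 1273 in young ones (1.60 ± 0.47, adjusted p = 0.483). None of these overlapped between the ages, and non-overlap was not counted over all genes tested. Of 9 residency genes tested 8 were positive (median 0.86), and of 10 regulatory genes 8 were positive (median 0.65). In the middle-aged libraries Il1rl1 had 139 and 301 CPM against 11.3 and 8.27 CPM in the young ones (4.09 ± 0.62, adjusted p = 0.0670). It was called under DESeq2.

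Cytotoxic genes differed widely between libraries of the same age. Ccl5 had 788 and 4323 CPM in the young female and male libraries, 1479 and 7324 in those labelled middle-aged female and male, and 3414 and 1120 in the aged female and male ones. Gzma had 167 and 74.4 CPM in the young female and male libraries, 12.1 and 1365 in those labelled middle-aged female and male, and 1637 and 34.7 in the aged ones. Each age thus held a high and a low library for Ccl5. A Ccl5 UMI was found in 13.1% and 59.4% of T cells in the young female and male libraries, 25.9% and 62.2% in those labelled middle-aged female and male, and 53.9% and 17% in the aged ones. The shares were 10.6% and 60.3%, 22.2% and 57.5%, and 54.7% and 17.3% after thinning to 1000 UMIs, and 0 to 0.604% of fibroblasts held a Ccl5 UMI. Of 12 cytotoxic genes tested 0 had an unadjusted p under 0.05 for aged against young (median 0.36).

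**Figure D5:**
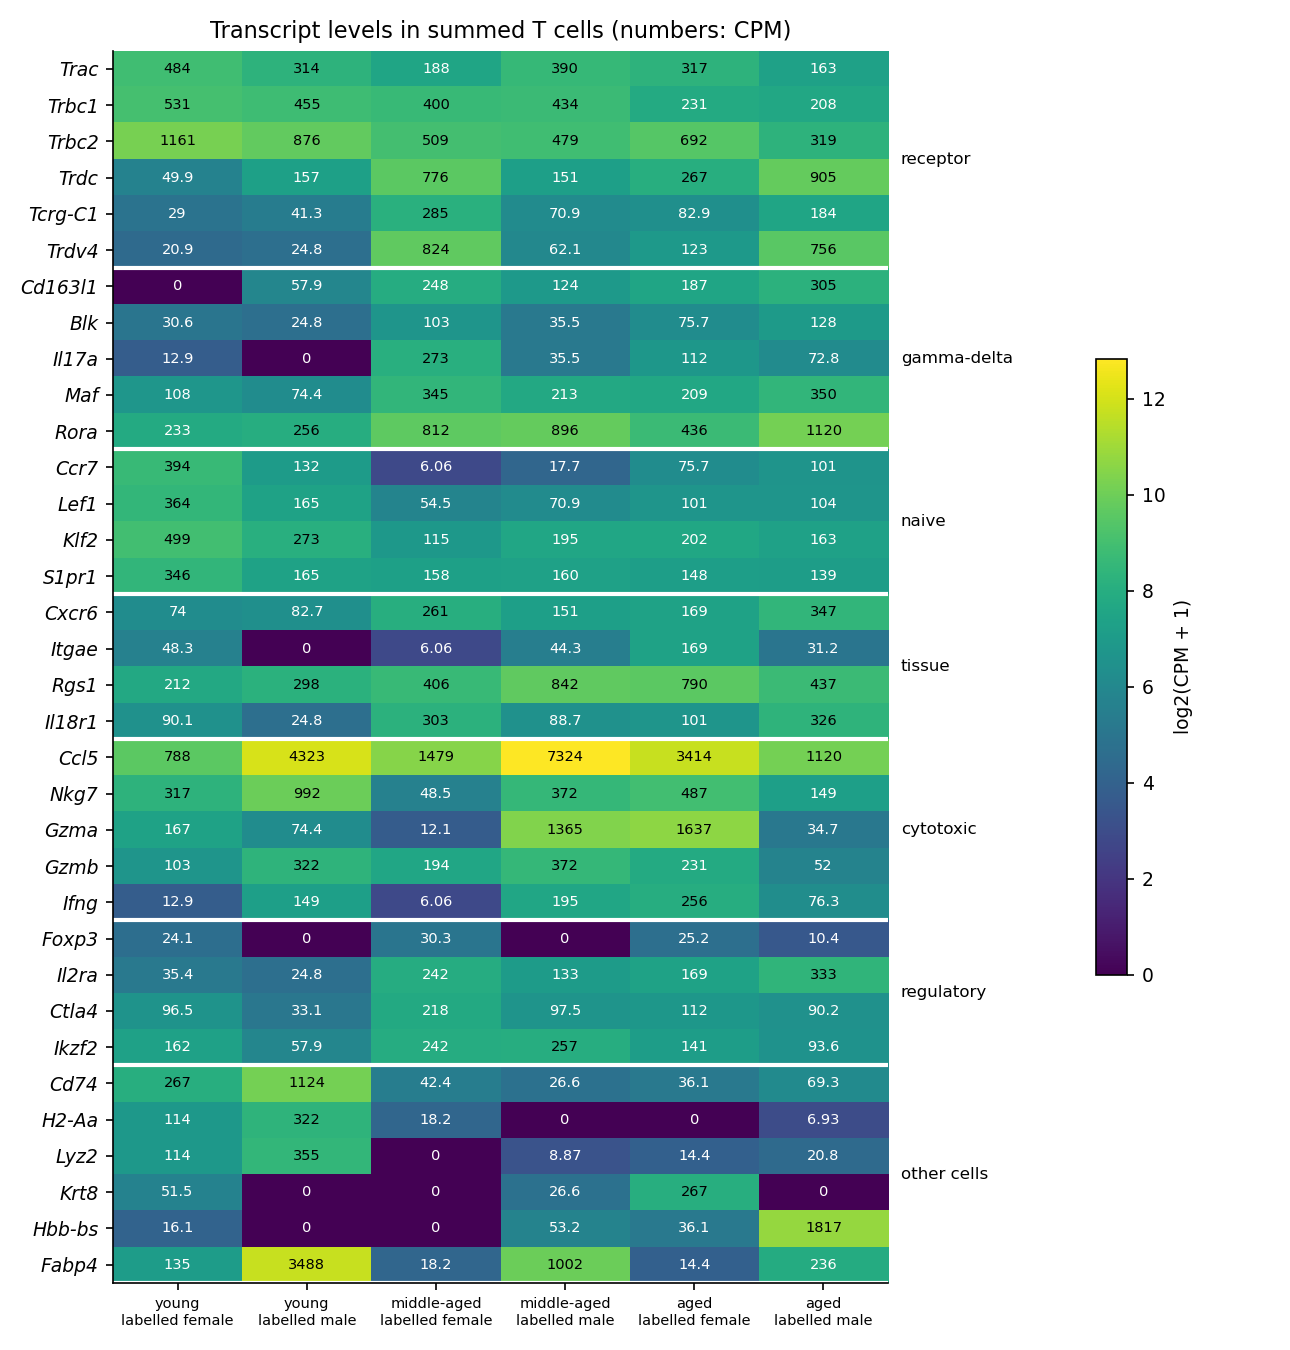
Heat map of log2(CPM + 1) in the summed T cells of each library (columns) for genes of the receptor, gamma-delta, naive, tissue, cytotoxic and regulatory groups and of other cells (rows), with the CPM printed in each field. Trdc, Trdv4 and Cd163l1 are brightest in the library labelled middle-aged female and the aged male one, Ccr7 and Lef1 in the young female one, and Cd74, Lyz2 and Fabp4 in the young male one.

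Class II and myeloid transcripts lay lower in the aged T cells. Cd74 had 36.1 and 69.3 CPM in aged female and male T cells against 267 and 1124 in young female and male ones (−3.87 ± 0.65, adjusted p = 0.0973), and Lyz2, a lysozyme of macrophages, 14.4 and 20.8 against 114 and 355 CPM (−3.83 ± 0.66, adjusted p = 0.0973). H2-Aa had 2 UMIs in aged cells against 110 in young ones, a ratio of 0.0239 (0.00285 to 0.0883). Aged and young did not overlap for these genes, and non-overlap was not counted over all genes tested. Conventional mouse T cells make little class II, and the summed dendritic cell list stood at 79.3 and 118 CPM in aged against 510 and 463 CPM in young cells, and the macrophage list at 32.4 and 58.9 against 183 and 405 CPM. The dendritic cell list includes H2-Aa itself and Ccr7, given above among the genes of naive cells, and the macrophage list includes Lyz2. Both sums thus partly repeat values already given and are not separate evidence. The part of dendritic cells and macrophages in these differences was not tested. With labelled sex as a replicate block, with either assignment of the middle-aged labels, Cd74, H2-Aa and Lyz2 were called lower. Without the Trdc-positive cells, where 10 genes were called, Cd74, H2-Aa and Lyz2 were among the 8 lower ones. With free RNA subtracted or without barcodes marked by Scrublet, 0 genes were called for aged against young. The count was also 0 in sums thinned to the smallest and without cells holding markers of other cells.

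Female and male T cells were compared in the 4 young and aged libraries, whose labels matched their sex-linked transcripts, with age in the model. edgeR called 20 genes higher and 16 lower in female cells of 3769 (0.955%; 0.531% higher, 0.425% lower), and DESeq2 called 3 (0.0796%). The fit leaves 1 residual degree of freedom. DESeq2's calls were Fabp4, Nupr1 and Slc12a2. Gzma, Ccl4, Cd8a, Cd8b1, Itgae, Trdc and Trdv4, given below, were called neither by DESeq2 nor by edgeR with all 6 libraries as labelled. CD8 genes and part of the cytotoxic set rose. Gzma had 167 and 1637 CPM in young and aged female cells against 74.4 and 34.7 in young and aged male ones, higher at both ages by 3.69 ± 0.58 (adjusted p = 2.31e-07), and Ccl4, a chemokine of activated CD8 cells, had 62.7 and 469 against 33.1 and 27.7 CPM (3.01 ± 0.58, adjusted p = 0.000104). Cd8a had 122 and 141 against 8.27 and 38.1 CPM (2.38 ± 0.56, adjusted p = 0.00561), and Cd8b1 269 and 256 against 57.9 and 86.7 (1.85 ± 0.45, adjusted p = 0.00905). Itgae, the CD103 integrin that binds epithelial cadherin, had 48.3 and 169 against 0 and 31.2 CPM and rose by 2.69 ± 0.63 (adjusted p = 0.00487). None of these groups overlapped, and non-overlap was not counted over all genes tested.

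Of the gamma-delta genes, Trdc and Trdv4 were lower in female cells. Trdc had 49.9 and 267 CPM in young and aged female cells against 157 and 905 in young and aged male ones, lower within each age (log2 difference −1.69 ± 0.43, adjusted p = 0.0138), and Trdv4 20.9 and 123 against 24.8 and 756 (−1.97 ± 0.49, adjusted p = 0.0134). Both overlapped between the sexes when the ages were pooled, and the Trdv4 difference was 0.12 with all 6 libraries as labelled. Of 10 gamma-delta genes tested 2 fell and 0 rose (median −0.60, against 0.03 for all genes), and of 11 cytotoxic genes 2 rose (Gzma, Ccl4). Epithelial genes were prominent among the rest: Krt8, Krt18, Krt19 and the prolactin receptor Prlr were at 0 in male cells and at least 16.1-, 17-, 18.2- and 21.6-fold higher in female ones. More than 9 UMIs of Krt8 and Krt18 together were held by 2 of 337 young female and 2 of 104 aged female T cells, and by 0 of the male ones. Fabp4, a fatty acid carrier of adipocytes and capillary endothelium, had 135 and 14.4 against 3488 and 236 CPM (log2 difference −4.38 ± 0.60, adjusted p = 1.11e-09), and Sparc and Timp3, both of stromal cells, were lower with differences of −2.99 and −2.26. With the cells holding markers of other cells left out 16 genes were called. Of 23 original calls still tested 14 were among them, Gzma, Ccl4, Cd8a, Cd8b1, Itgae, Trdc and Trdv4 included, while Krt8, Krt18, Krt19, Prlr and Fabp4 were not. With all 6 libraries and the middle-aged labels exchanged, 15 genes were called, and Gzma, Ccl4, Cd8a and Trdc but not Trdv4, Itgae or Cd8b1 were among them.

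T cells held more Trac and less of the cytotoxic transcripts than NK-like cells, which were chosen by Ncr1, Klrb1c and Klre1 and by a lack of Cd3 UMIs. NK-like cells, 60 in all, could be compared in the young female, young male and aged female libraries, where 28 genes were higher and 45 lower in T cells of 1521 (4.80%; 1.84% higher, 2.96% lower). DESeq2 called 37 (2.43%). The Cd3 genes of the rule were not tested. Trac had 484, 314 and 317 CPM in T cells against 0, 23 and 40.9 in NK-like cells (4.22, adjusted p = 0.000188), and Il7r, the interleukin-7 receptor that keeps resting T cells alive, rose by 2.82 (adjusted p = 0.000397). Cd69, an early activation and retention antigen, had 315 against 1 UMIs, in sums of very unequal size. Over all T cells and all NK-like cells it had 295 against 31.9 CPM. Of 14 cytotoxic genes 11 fell in T cells and 0 rose, with a median of −2.50 against 0.09 for all genes: Prf1, the pore-forming perforin, had 24.1, 24.8 and 28.8 CPM in T cells against 404, 392 and 654 in NK-like cells (−3.95, adjusted p = 7.36e-06). Gzma had 167, 74.4 and 1637 against 6297, 4264 and 5765 CPM (−3.89, adjusted p = 3.00e-05). Trbc1 did not pass (0.49, adjusted p = 0.548). Against B cells, compared in all 6 libraries, 293 genes were higher and 305 lower in T cells of 3211 (18.6%; 9.12% higher, 9.5% lower), and DESeq2 called 524 (16.3%). Among edgeR's calls were Ccl5, at least 619-fold higher, and Trdc, at least 97.9-fold higher.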

How the data were processed

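The deposited matrices hold UMI counts for each gene and barcode, whole numbers without normalization, which the authors produced with Cell Ranger 3.0.2 per the file headers. The submitters' processing notes name the mm10 build and Seurat. The labels name v2 chemistry, while each library lists 6794880 barcodes, the number of a later kit. Of 31053 gene IDs, 71 shared a symbol and were summed, which left 31017 symbols, and 30934 IDs were found in GENCODE M21, which gave the coordinates. T cells were chosen by the rule given above. The members, the 31 gene lists and the comparisons were chosen with earlier results of these data known. Counts were summed per library, since cells are not replicates, with at least 20 T cells or 10 cells of a subset per sum. The main test was edgeR's quasi-likelihood F test (version 4.0.16 in R 4.3.3) after filterByExpr and TMM scaling, with a Benjamini-Hochberg adjusted p under 0.05 as a call, and DESeq2 1.42.0 the alternative. The edgeR fits were tested on simulated data. With 2 against 2 libraries an exact permutation test cannot go below p = 0.333. CPM values are a gene's share of all UMIs in a sum, on one common scale. Named genes were up to 8 calls per direction with the largest fold among those with at least 50 CPM in the higher group, up to 3 genes of each list by smallest p and 63 fixed genes. Genes outside this rule, among them those named from DESeq2 or from fits without a library, were chosen after their values were seen. No gene of the selection rule was tested in a comparison it defined. Intervals cover counting error only. Doublets were left in, as were T cells with markers of other cells, and both were left out in alternatives. Tools were Python 3.11.15, numpy 2.4.6, scipy 1.17.1, pandas 2.3.3, scanpy 1.11.5 and matplotlib 3.10.9.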

Additional observations from a re-analysis of the deposited data

How the results depend on the processing

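Counts of called genes depended on the processing. For aged against young T cells, where 0 were called, DESeq2 called 7, no filter on low counts 100, at least 3 Cd3 UMIs 5, and leaving out Trdc-positive cells 10. The replicate numbers follow the labelled sex and name no shared animal. With labelled sex as a replicate block 9 genes were called, and 5 with the middle-aged labels exchanged in that block. Leaving out 1 library gave 0 to 25 calls. For middle-aged against young (0 called) the counts were 8 with DESeq2, 73 with no filter, 3 with at least 3 Cd3 UMIs, 10 without Trdc-positive cells, 1 without cells holding markers of other cells, 10 with the sex replicate block, 8 with the block and exchanged labels, and 0 to 38 with a library left out. The highest of these were 38 without the aged male library and 18 without the aged female one. For aged against middle-aged (0 called) they were 33 with no filter and 0 to 19 with a library left out. For female against male (36 called) they were 3 with DESeq2, 69 with no filter, 17 without barcodes marked by Scrublet, 17 in sums thinned to the smallest, 7 in all 6 libraries with labels as given, 15 with the middle-aged labels exchanged, and 16 without cells holding markers of other cells. Trdv4 reversed to 0.12 with all 6 libraries and labels as given, and Hba-a1 to 0.35 without barcodes marked by Scrublet. Leaving out a library there leaves no residual degrees of freedom and was not run. For CD8 against CD4 (0 called) they were 1 with DESeq2, 84 with no filter, 52 with at least 3 Cd3 UMIs, 1 with free RNA subtracted, 2 in sums thinned to 1 depth, and 0 to 79 with a library left out. With at least 3 Cd3 UMIs the aged male library held 8 CD8 and 2 CD4 cells, under the minimum of 10 per sum. By that minimum the fit lacked this library, as did the one with 79 calls, so the 2 counts are not separate results. For double-negative against CD4 and CD8 cells (54 called) they were 21 with DESeq2, 118 with no filter, 2 with no replicate block, where the block is the library that both sums share, 33 with at least 3 Cd3 UMIs, 9 without Trdc-positive cells, and 16 to 52 with a library left out. For T against NK-like cells (73 called) they were 37 with DESeq2, 42 with no replicate block, 24 thinned and 36 to 86 with a library left out. For T against B cells (598 called) they were 992 with no filter, 239 with no replicate block, 382 thinned and 398 to 630 with a library left out. The difference in T cell share was −0.44 to 2.83 for aged against young, −1.92 to 1.35 for middle-aged against young and 0.92 to 2.10 for aged against middle-aged with a library left out. It reversed to 0.17 for middle-aged against young with at least 800 detected genes. Thinning to 1000 UMIs moved the CD4 share to 4.47% and the CD8 share to 19.5%. The cause of these shifts was not tested. A comparison of Foxp3-positive with other CD4 cells was not run, since no library held enough cells. Depth limits every share of cells with a UMI, and the 27 cells of the library labelled middle-aged female limit that library most.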

Other observations

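Other gene groups in the T cells showed no call by age, and their values are given for completeness. Mki67, a marker of dividing cells, had 260 and 166 CPM in the aged female and male libraries against 37.0 and 116 CPM in the young female and male ones (1.45 on the log2 scale, adjusted p = 0.722), and of 8 cell cycle genes tested 6 were positive (median 0.65). Interferon-induced genes leaned the other way: 2 of 10 were positive and 8 negative (median −0.50), with 1 at an unadjusted p under 0.05. The 10 heat shock genes (median 0.02), 11 MHC class I genes (−0.17), 15 immediate early genes (0.06), 11 integrin and adhesion genes (0.33), 9 oxidative stress genes (0.32) and 6 checkpoint genes (0.12) had medians within 0.33 of the value for all genes (0.01). Of 19 listed genes reported in ageing T cells 15 were tested, and 10 were positive and 5 negative for aged against young (median 0.22), with 1 higher and 2 lower at an unadjusted p under 0.05.

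The same lists between double-negative and CD4 or CD8 cells held few calls outside the gamma-delta, tissue and S100 genes. Over all 2712 genes tested 1.73% were called higher and 0.258% lower. None of 10 heat shock, 11 integrin and adhesion, 15 immediate early, 10 MHC class I, 8 oxidative stress or 7 cell cycle genes passed edgeR's test. Of 9 interferon-induced genes 1 rose, Ly6a, the antigen Sca-1, and 1 fell, Ly6c2. Ly6a had 104, 206, 98.7 and 354 CPM in the double-negative cells of the young female, labelled middle-aged male, aged male and aged female libraries, against 26.2, 74.9, 16 and 149 CPM in their CD4 and CD8 cells (1.57 ± 0.32, adjusted p = 0.0146). Of the 19 listed genes reported in ageing T cells 13 were tested there, and 4 rose (S100a4, S100a6, S100a11, Lgals1) and 0 fell, with a median of 0.46, against −0.01 over all genes. S100a4, S100a6 and S100a11 were not called without the Trdc-positive cells.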
